A study of Mus musculus with 48 samples.

Results

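The genes described here are 10 core components of the mammalian circadian clock, Per1, Per2, Per3, Arntl, Clock, Nr1d1, Nr1d2, Dbp, Cry1 and Cry2, chosen by symbol and read from the 52636 Ensembl genes of the deposited expression table. RNA was sequenced from the right amygdala of 48 female mice, 8 in each of 6 groups. The mice were wild type (WT) or heterozygous for a targeted deletion of Brd1, a bromodomain gene of the histone acetylation machinery (Brd1+/-), all on a C57BL/6NTac background, litter-matched and 8 to 11 weeks old. Each genotype received subcutaneous vehicle, the tricyclic antidepressant imipramine (IMN) at 10 mg/kg, or the serotonin reuptake inhibitor fluoxetine (FLX) at 5 mg/kg, and all mice passed through tail suspension, open field and forced swim tests before the brain was taken. The sample is a tissue punch, so fewer cells of a type and less RNA per cell cannot be told apart. The light cycle was 12 hours on and off, whereas the hour at which each brain was collected is not given in the sources used here.

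The circadian clock is a transcriptional feedback loop that runs in most cells. Arntl (also called Bmal1) and Clock form the activator that binds E-box elements and drives the Per and Cry genes, whose proteins then repress that activator. In a second loop the nuclear receptors Nr1d1 and Nr1d2 (REV-ERB alpha and beta) repress Arntl, and Dbp is a directly driven output gene that binds D-box elements. In tissues with a strong rhythm, Arntl therefore peaks at roughly the opposite time of day from Dbp and Nr1d1. Per1 and Per2 are also acutely induced by neuronal activity, glucocorticoids and stress, so their levels read more than the time of day.

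RefSeq promoter windows of 300 bases, from 250 before to 50 after a start site, were held for 9 of the 10 genes (13 windows, GRCm38.p6). The E-box CACGTG was found in a window of 2 genes, Per1 and Cry1, and in 7.15% of all 32851 windows of the same length. The variant CACGTT, on either strand, was found for 3 genes (Nr1d1, Cry1 and Cry2) and in 4.68% of all windows. The D-box TTATGTAA, on either strand, was found for Per3, which held 2 copies, and in 0.938% of all windows. The nuclear receptor half-site AGGTCA was found for 4 genes (Per1, Arntl, Clock and Nr1d2) and in 16.3% of all windows, and the cyclic AMP element TGACGTCA for 0 genes against 1.79%. A gene was counted if any of its windows held the motif, whereas the shares are per window. Per1, Arntl and Clock had more than 1 window, so counts and shares are not in the same unit. The motifs do not share bases in these windows, and a match is a run of letters, not a measured binding site. The windows with an E-box and that with the D-boxes are shown because they carry the elements through which the loop is known to act, with every motif searched in capitals.
Per1, chr11:69098699-69098998, plus strand: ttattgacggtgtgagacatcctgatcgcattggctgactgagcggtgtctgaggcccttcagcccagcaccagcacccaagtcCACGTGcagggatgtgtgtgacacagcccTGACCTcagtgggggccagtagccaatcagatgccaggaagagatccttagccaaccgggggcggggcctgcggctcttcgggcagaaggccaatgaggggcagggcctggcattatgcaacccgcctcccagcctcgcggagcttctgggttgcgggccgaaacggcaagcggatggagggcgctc
Cry1, chr10:85185005-85185304, minus strand: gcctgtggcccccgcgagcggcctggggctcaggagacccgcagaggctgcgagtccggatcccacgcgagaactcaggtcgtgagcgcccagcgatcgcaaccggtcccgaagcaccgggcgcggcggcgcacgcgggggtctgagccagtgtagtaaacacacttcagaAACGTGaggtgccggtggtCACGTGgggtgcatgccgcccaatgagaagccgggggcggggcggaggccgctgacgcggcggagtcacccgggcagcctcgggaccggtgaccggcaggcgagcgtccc
Per3, chr4:151044616-151044915, minus strand: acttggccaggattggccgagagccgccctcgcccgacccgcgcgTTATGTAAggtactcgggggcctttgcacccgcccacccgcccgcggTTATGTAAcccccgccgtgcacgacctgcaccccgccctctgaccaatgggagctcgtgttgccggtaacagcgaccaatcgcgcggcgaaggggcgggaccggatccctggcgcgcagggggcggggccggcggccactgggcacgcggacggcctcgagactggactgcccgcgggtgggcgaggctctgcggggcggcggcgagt

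Brd1 itself was read first as a check of the labels. Its mean level was 35.6 ± 5.09 TPM in WT and 26.0 ± 2.90 TPM in Brd1+/- mice given vehicle (SD, n = 8 each), 36.9 ± 2.83 against 23.4 ± 4.84 TPM with IMN, and 32.9 ± 4.45 against 23.5 ± 3.49 TPM with FLX. The log2 differences were -0.45 (adjusted p = 0.0512), -0.68 (adjusted p = 0.102) and -0.49 (adjusted p = 0.0362), and the genotypes did not overlap among the mice given IMN. With striatal, oligodendrocyte and choroid plexus scores as covariates the adjusted p was 0.117, 0.00806 and 0.156. TPM is a length-corrected share of the transcripts in a library, scaled to the same total in each, and it keeps no read depth. The 8 markers of striatal projection neurons summed to between 173 and 11227 TPM over the 48 libraries, the 6 of oligodendrocytes to between 642 and 16268 TPM and the 5 of choroid plexus to between 7.39 and 29502 TPM. The 7 markers of the amygdala summed to between 380.6 and 1869 TPM, those of neurons to between 1645 and 4861 TPM, and those of astrocytes, microglia and endothelium to between 306.6 and 1185, between 111.4 and 315.6 and between 38.5 and 87.6 TPM. No marker of these lists was at 0 in every library. Of 10 markers of the hypothalamus and the suprachiasmatic nucleus, the seat of the central clock, 7 had a median under 1 TPM, although their sum reached 10327 TPM in 1 WT library given IMN. The 7 libraries with the highest striatal sum, from 7192 to 11227 TPM, stood above the other 41. Several correlations of the clock genes are given with and without them, and those with other genes of the pathway over all 48 only.

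All 10 clock genes were detected at 1 TPM or more in 48 of 48 libraries. Dbp had the highest mean level, 89.1 ± 37.1 TPM (SD, n = 48), followed by Nr1d2 at 80.7 ± 10.8, Cry2 at 79.4 ± 12.2 and Nr1d1 at 78.5 ± 14.9 TPM, and these 4 genes did not differ beyond their spread. Per1 came next at 56.8 ± 9.31 TPM. Clock at 30.4 ± 4.39, Per3 at 30.2 ± 6.30, Arntl at 26.2 ± 9.26, Per2 at 22.3 ± 6.07 and Cry1 at 18.2 ± 4.39 TPM followed, each within the spread of its neighbours. The highest library was 4.94 times the lowest for Dbp and 4.04 times for Arntl, but 1.70 times for Cry2 and 1.75 times for Clock. On the log2 scale the SD within groups was 0.54 for Dbp and 0.47 for Arntl, at the 66.9 and 60.6 percentiles of the 19222 genes with a mean of at least 1 TPM. The other 8 clock genes lay below the median SD of those genes, 0.38, with Nr1d2 lowest at 0.19. The median SD of the 10 clock genes was 0.27.

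**Figure D1:**
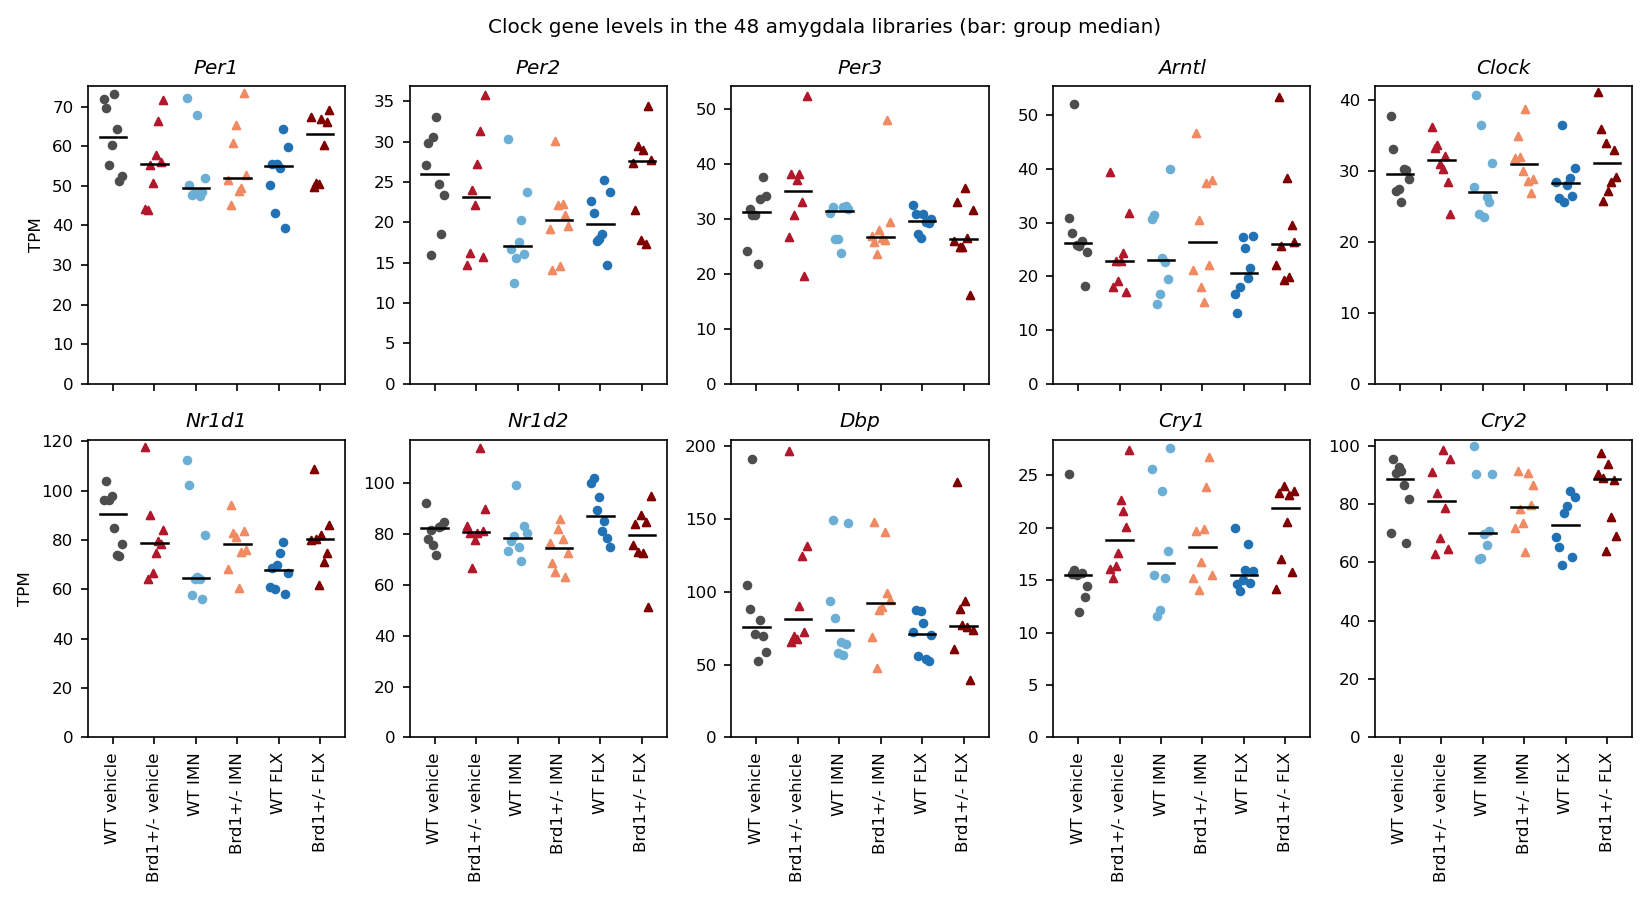
Level of each clock gene in TPM, on axes that start at 0, in the 48 amygdala libraries by group. Each point is a library (circles WT, triangles Brd1+/-) and each bar a group median. The 6 groups overlap for every gene, and the widest spread is that of Dbp, from 39.8 to 196.8 TPM.

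Positions are those of the GENCODE annotation of GRCm38. The repressor genes are Per1 at chr11:69095217-69109960, Per2 at chr1:91415982-91459324, Per3 at chr4:151003652-151044665, Cry1 at chr10:85131700-85185064 and Cry2 at chr2:92403646-92434043. The activator genes are Arntl at chr7:113207465-113314126 and Clock at chr5:76209868-76304792. The receptor genes Nr1d1 and Nr1d2 are at chr11:98767932-98775333 and chr14:18204054-18239127, and Dbp is at chr7:45705088-45710203. Nr1d1 shares 263 exonic bases with Thra, the thyroid hormone receptor alpha gene on the opposite strand, whose mean was 695 TPM, and Dbp shares 539 with Sphk2 at 24.7 TPM. Cry2 shares 295 exonic bases with a non-coding transcript on the opposite strand at 4.04 TPM. No source used here states that strand was used in the quantification, so the levels of Nr1d1, Dbp and Cry2 are uncertain to that extent.

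Whether the clock genes differed among the groups was tested over the 6 groups together, for 9 pairs of groups and for both interactions of genotype with drug. No clock gene passed an adjusted p of 0.05 in any of these 12 comparisons (limma on log2 TPM, Benjamini-Hochberg adjustment over all genes tested). Across the 6 groups, 0 of 10 clock genes were called, against 1.7% of the 27944 genes tested, and Nr1d1 had the smallest adjusted p among them, 0.479. None of them reached an unadjusted p under 0.05 there either. The ranges of TPM overlapped for every clock gene in each of the 9 pairs of groups. This makes 90 tests of 1 gene, and 7 of these 90 had an exact permutation p under 0.05 before any adjustment. The overlap and the exact p were not computed over all genes. With limma, the share of all genes at an unadjusted p under 0.05 ran from 2.99% to 16.8% over the 9 pairs.

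The loss of 1 Brd1 allele was compared within each treatment. With vehicle, 0 of 10 clock genes were called and 0 had an unadjusted p under 0.05, against 0.708% of all genes called. The estimates ran from -0.24 for Arntl (95% interval -0.66 to 0.18) to 0.30 for Cry1 (-0.01 to 0.62) on the log2 scale, and that of Dbp was 0.20 (-0.37 to 0.77). With IMN, 0 of 10 were called and 0 had an unadjusted p under 0.05, against 0.017% of all genes, and the estimates ran from -0.11 for Nr1d2 to 0.17 for Arntl. With FLX, 0 of 10 were called against 1.54% of all genes, and 8 of the 10 estimates were above 0, whereas 42.0% of all genes were. The median of the clock genes was 0.21 beside a median of -0.06 over all 23635 genes tested.

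Nr1d1 and Cry1 were the clock genes with an unadjusted p under 0.05 between the genotypes given FLX, 2 of 10 beside 16.6% of all genes. The count was 6 under median-ratio scaling and under quantile normalization, where 0 of 10 were called against 1.01% and 1.28% of all genes. The share of all genes at an unadjusted p under 0.05 was not computed in these settings. Nr1d1 ranged from 58.3 to 79.2 TPM with a median of 67.8 in WT, and from 61.7 to 108.8 TPM with a median of 80.3 in Brd1+/- mice. The groups overlapped, and the log2 difference was 0.25 ± 0.10 (SE, n = 8 each, exact two-sided permutation p = 0.0213, adjusted p = 0.213). Cry1, a repressor of the activator complex, ranged from 13.995 to 19.99 TPM with a median of 15.5 in WT and from 14.2 to 24.0 TPM with a median of 21.8 in Brd1+/- mice. Its log2 difference was 0.31 ± 0.13 (SE, n = 8 each, exact two-sided permutation p = 0.028, adjusted p = 0.219). Neither difference passed the threshold over all genes. With the composition scores as covariates the difference was 0.16 for Nr1d1 (adjusted p = 0.546) and 0.36 for Cry1 (adjusted p = 0.248), and the oligodendrocyte markers had a median sum of 5444 TPM in WT and 2706 TPM in Brd1+/- mice. Of 10 markers of the hypothalamus, 7 with a median under 1 TPM over all libraries, Fezf1 and Lhx5 were lower in Brd1+/- mice. The log2 differences of these developmental transcription factors were -3.99 and -4.23 (limma, adjusted p = 0.0322 and 0.0284). In this comparison 1.54% of all genes were called, and the other markers of the list are not given singly. The 10 markers summed to 27.8 to 4604 TPM (median 77.7) in WT and 5.62 to 62.1 TPM (median 25.2) in Brd1+/- mice. In WT the sums were 1568, 4604 and 3744 TPM in replicates 1 to 3 and at most 118.9 TPM in the others. The part of these markers in the differences of the clock genes was not tested.

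IMN was compared with vehicle in each genotype. In WT mice 0 of 10 clock genes were called, as were 0% of all 23644 genes, and 1 clock gene and 1084 genes in all had an unadjusted p under 0.05 with limma. That gene was Per2, at 16.02 to 33.0 TPM (median 25.9) with vehicle and 12.5 to 30.3 TPM (median 17.1) with IMN, a log2 difference of -0.42 ± 0.18 (SE, n = 8 each, exact two-sided permutation p = 0.0457, adjusted p = 0.970). Its difference was -0.09 with the composition scores as covariates (adjusted p = 0.994), and the oligodendrocyte markers had a median sum of 1830 TPM with vehicle and 3104 TPM with IMN. In Brd1+/- mice 0 of 10 were called and 0 had an unadjusted p under 0.05, against 0.776% of all genes, and the estimates ran from -0.22 for Per3 to 0.18 for Arntl. The interaction of genotype with IMN called 0 of 10 clock genes, with 0 at an unadjusted p under 0.05, against 0.536% of all genes.

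FLX was compared with vehicle in each genotype as well. In WT mice 8 of the 10 genes had a lower estimate with FLX and the median difference was -0.23, beside 0.05 over all genes, of which 56.8% were higher. Still, 0 of 10 were called against 0.335% of all genes, with 4 of 10 at an unadjusted p under 0.05 against 16.8% of all genes. The same 8 vehicle libraries serve the comparisons with IMN and with FLX in WT mice, and the same 8 WT libraries given FLX serve those with vehicle and with Brd1+/- mice, so these results are not independent of each other.

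Nr1d1 had the smallest p among the clock genes in that comparison. It ranged from 73.8 to 103.8 TPM with a median of 90.4 in WT mice given vehicle and from 58.3 to 79.2 TPM with a median of 67.8 given FLX. Only the top of the FLX range overlapped the vehicle libraries, and the log2 difference was -0.38 ± 0.09 (SE, n = 8 each, exact two-sided permutation p = 0.00155, adjusted p = 0.065). Its call turned on single libraries: adjusted p fell to 0.0424 without WT vehicle replicate 1, 0.034 without WT vehicle replicate 7 and 0.0497 without WT FLX replicate 6, and rose to 0.771 with striatal, oligodendrocyte and choroid plexus scores as covariates, where the difference was -0.29. The oligodendrocyte markers summed to 642 to 10381 TPM (median 1830) in the vehicle libraries and 1839 to 7968 TPM (median 5444) in the FLX libraries, and the striatal markers reached 11227 and 3164 TPM. The part of tissue composition in this difference was not tested beyond that fit.

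The other 3 clock genes at an unadjusted p under 0.05 were Arntl, Cry2 and Per1. Arntl ranged from 18.1 to 52.0 TPM (median 26.2) with vehicle and from 13.2 to 27.6 TPM (median 20.6) with FLX, a log2 difference of -0.43 ± 0.19 (SE, n = 8 each, exact two-sided permutation p = 0.0438, adjusted p = 0.262). Cry2 ranged from 66.8 to 95.5 TPM (median 88.7) and from 59.0 to 84.4 TPM (median 72.9), a log2 difference of -0.22 ± 0.10 (adjusted p = 0.262). Per1 ranged from 51.2 to 73.1 TPM (median 62.4) and from 39.2 to 64.4 TPM (median 55.1), a log2 difference of -0.24 ± 0.11 (adjusted p = 0.280). The groups overlapped for each of the 3. With the composition scores as covariates the differences were -0.14 for Arntl, -0.06 for Cry2 and -0.17 for Per1 (adjusted p = 0.871, 0.945 and 0.848), and 1 of the 4 genes, Nr1d1, kept an unadjusted p under 0.05.

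**Figure D2:**
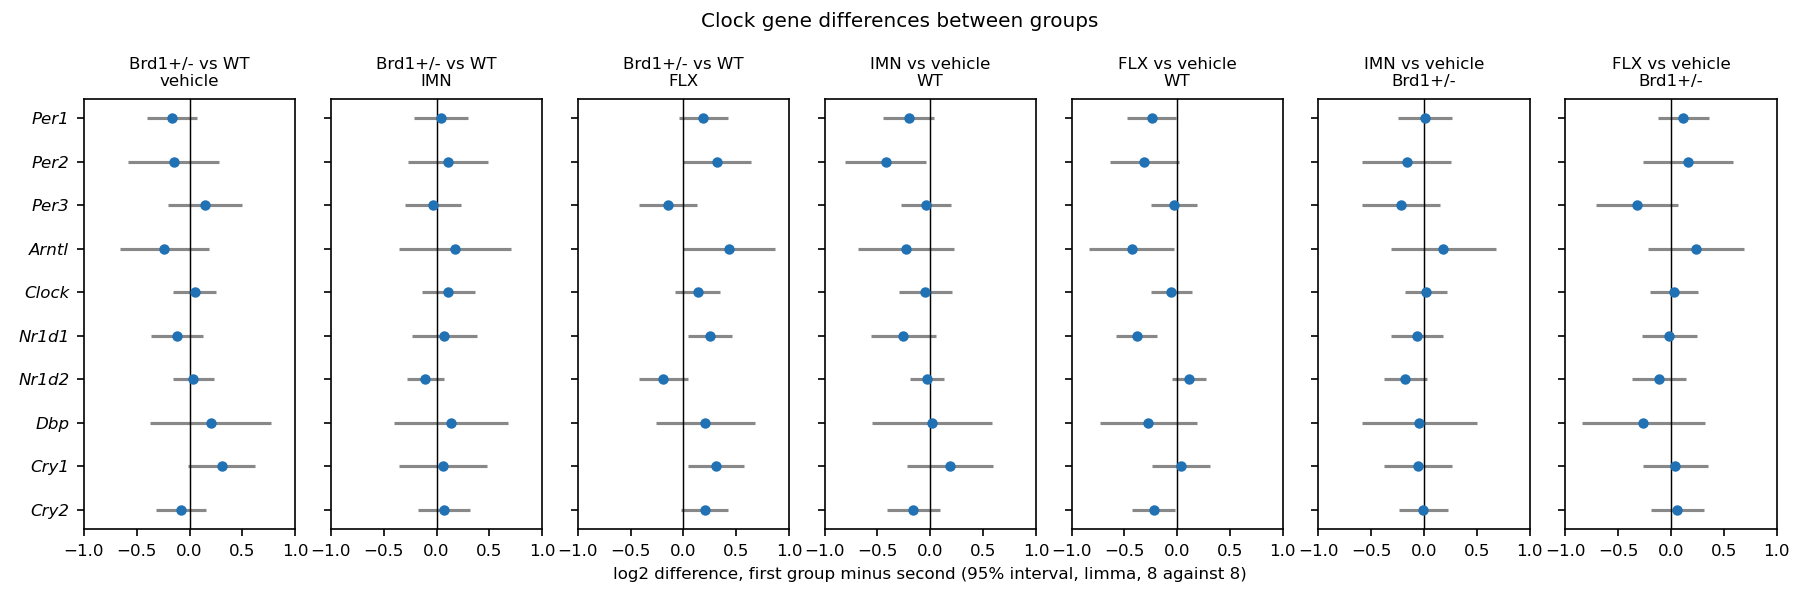
Log2 difference of each clock gene in 7 comparisons of 8 against 8 libraries, first group minus second, with the 95% interval from limma. Most intervals span 0, and the exceptions lie mainly in the comparison of FLX with vehicle in WT mice, where Nr1d1 is at -0.38.

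In Brd1+/- mice FLX moved no clock gene past the threshold. 0 of 10 were called and 0 had an unadjusted p under 0.05, against 0.731% of all genes, and the estimates ran from -0.32 for Per3 to 0.24 for Arntl. FLX against IMN called 0 of 10 in WT (0 at an unadjusted p under 0.05) and 0 of 10 in Brd1+/- mice (also 0), while the share of all genes called was 0% in both, with 1123 and 709 genes at an unadjusted p under 0.05. The interaction of genotype with FLX called 0 of 10 clock genes, against 1.71% of all genes, with 3 of 10 at an unadjusted p under 0.05 beside 16.8% of all genes. Those were Arntl at 0.67 (95% interval 0.07 to 1.27, adjusted p = 0.240), Nr1d1 at 0.37 (0.05 to 0.68, adjusted p = 0.215) and Per1 at 0.36 (0.03 to 0.68, adjusted p = 0.250), positive where the drug difference was higher in Brd1+/- mice. With the composition scores 0 of 10 kept an unadjusted p under 0.05 with limma, and the estimates were 0.24, 0.17 and 0.27. The median of all genes in that interaction was -0.10, and 0.01 after quantile normalization.

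A further 25 genes of the clock pathway were read in the same fits, and all 25 were tested in each comparison. Of these 25, 1 passed the threshold, in IMN against vehicle in Brd1+/- mice, beside 0.776% of all genes called. This was Rorb, a nuclear receptor that activates Arntl, which was lower by 0.71 on the log2 scale with IMN (limma, adjusted p = 0.0367). In Brd1+/- mice its median was 4.99 TPM with vehicle, 3.04 TPM with IMN and 3.42 TPM with FLX. In WT mice the medians were 3.91, 3.46 and 3.94 TPM, so the Brd1+/- vehicle group had the highest. Rorb was at -0.53 with the composition scores and no longer passed (adjusted p = 0.574). In the other 10 comparisons with a direction and across the 6 groups 0 of 25 were called, against 0% to 1.71% of all genes. Between 0 and 7 of them had an unadjusted p under 0.05, where the share of all genes ran from 2.99% to 16.8%. The 7 of 25 stood in the interaction of genotype with FLX, beside 16.8% of all genes. The median difference of the list stayed between -0.02 and 0.08 in the 11 comparisons with a direction.

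Npas2, a paralogue of Clock that also pairs with Arntl, had similar low medians in WT mice given FLX and in WT mice given IMN. It ranged from 5.08 to 23.0 TPM with a median of 13.99 in WT mice given FLX, from 15.9 to 40.8 TPM with a median of 26.5 in WT mice given vehicle and from 15.2 to 54.8 TPM with a median of 28.3 in Brd1+/- mice given FLX. With IMN it ranged from 3.49 to 45.8 TPM (median 14.5) in WT and from 4.31 to 57.2 TPM (median 17.9) in Brd1+/- mice, and in Brd1+/- mice given vehicle its median was 27.8 TPM. The log2 difference was -1.12 ± 0.34 between FLX and vehicle in WT mice (n = 8 each, exact two-sided permutation p = 0.0104, adjusted p = 0.122) and 1.27 ± 0.37 between the genotypes given FLX (exact two-sided permutation p = 0.00761, adjusted p = 0.0886). The interaction was 1.69 ± 0.55 (adjusted p = 0.102). With the composition scores as covariates these estimates of Npas2 were -0.85, 0.96 and 1.06 (limma, adjusted p = 0.790, 0.259 and 0.363). Ciart, a repressor of the activator complex, and the D-box factors Tef and Hlf ranged over 13.9 to 30.2, 141 to 378 and 19.9 to 114.5 TPM across the 48 libraries. The D-box repressor Nfil3 ranged from 4.64 to 15.7 TPM, and the E-box repressors Bhlhe40 and Bhlhe41 from 34.2 to 143.5 and from 8.92 to 37.5 TPM. None of these 6 passed the threshold in a comparison.

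Genes that respond within hours to handling, stress or temperature were read beside the clock genes, since the mice swam before collection. Of 12 such genes, Egr1, an immediate-early transcription factor, fell by 1.15 on the log2 scale with FLX against vehicle in WT mice (limma, adjusted p = 0.0287). It was 1 of 12 called there, beside 0.335% of all genes. Nr4a1, an immediate-early nuclear receptor, had an interaction of genotype with FLX of 1.4997 on the log2 scale (limma, adjusted p = 0.0459). It was 1 of 12 called in that interaction, beside 1.71% of all genes. Neither passed with the composition scores, at -0.92 (adjusted p = 0.651) and 1.05 (adjusted p = 0.332). No other gene of the list passed in a comparison. Over the 48 libraries Fos ranged from 2.74 to 58.1 TPM, the glucocorticoid-responsive Sgk1, Fkbp5 and Tsc22d3 from 42.2 to 512.7, from 24.8 to 72.7 and from 20.3 to 261.0 TPM, the cold-inducible Cirbp from 46.9 to 163.5 TPM and the heat shock gene Hspa1a from 2.13 to 15.9 TPM.

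How the clock genes varied between libraries of one group was then examined, to ask whether they carry a trace of collection time. Each level was taken as log2 TPM minus the mean of its group, and all 45 pairs of clock genes were correlated over the 48 libraries, with 100000 permutations within groups and Benjamini-Hochberg adjustment over the 45 pairs. Of these, 9 pairs were called, and all 9 correlations were positive. The share called among pairs of other genes was not computed, here or in the settings below. Arntl, the activator, thus had correlations of the same sign with Nr1d1, Dbp and Cry2, genes that it drives.

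Arntl and Dbp had the lowest r of these 3 pairs. Their Pearson r was 0.63 and Spearman rho 0.54 (n = 48, permutation p = 5e-05, adjusted p = 0.00045), and r was 0.53 without the 2 libraries farthest from the median of Arntl. Dbp was highest in Brd1+/- vehicle replicate 1 at 196.8 TPM, WT vehicle replicate 3 at 191.5 TPM and Brd1+/- FLX replicate 2 at 175.5 TPM, and in the same libraries Arntl was at 39.3, 52.0 and 53.4 TPM against a median of 24.5 TPM over all 48. The striatal markers summed to 9324, 11227 and 10575 TPM there, against a median of 994 TPM. Of the 8 libraries with the most Dbp, 7 were among the 8 with the highest striatal sum and 6 among the 8 with the most Arntl.

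The r of Arntl and Dbp was lower without the libraries of highest striatal sum and with the composition scores removed. These scores were removed together, so the part of striatal content alone was not tested. Among the 41 libraries left after the 7 with the highest striatal sum, r of the pair was 0.19 (permutation, adjusted p = 0.383), and with striatal, oligodendrocyte and choroid plexus scores removed from both genes it was -0.12 (permutation, adjusted p = 0.607). These scores went with 80.3% of the within-group variance of Arntl and 77.5% of that of Dbp, with 65.8% for Cry2 and with 1.82% for Clock. Dbp and the striatal score had r = 0.88 and rho = 0.81 (n = 48, permutation p = 1e-05, the smallest the permutations can give, adjusted p over 90 relations 8.18e-05), and r was 0.86 without the 2 farthest libraries and 0.76 in the 41. Arntl and the striatal score had r = 0.78 and rho = 0.71, with r = 0.57 in the 41.

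**Figure D3:**
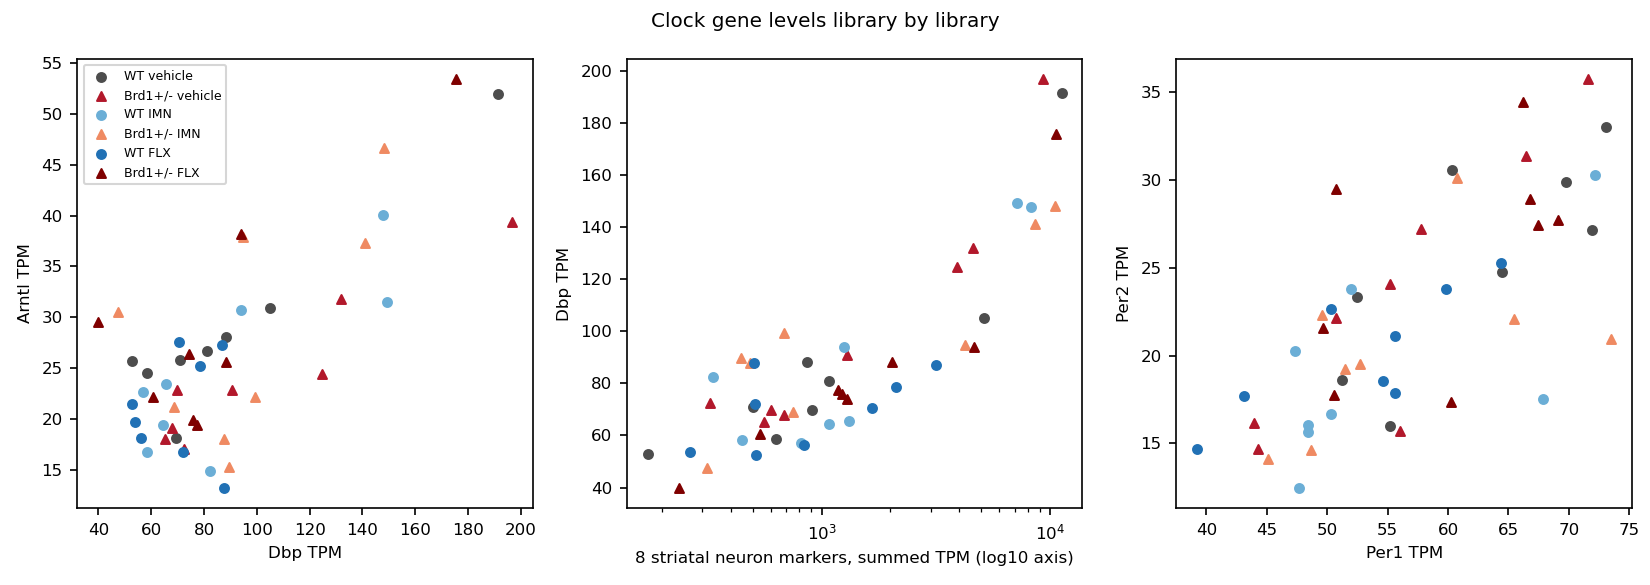
Levels in TPM in single libraries, coloured by group: Arntl against Dbp, Dbp against the summed TPM of 8 striatal neuron markers on a log10 axis, and Per2 against Per1. The libraries richest in Dbp, up to 196.8 TPM, are also those with the highest striatal sum, up to 11227 TPM.

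Per1 and Per2 formed a second correlated pair. Their r was 0.69 and rho 0.68 (n = 48, permutation p = 2e-05, adjusted p = 0.000225), r was 0.68 without the 2 farthest libraries, and it was 0.83 among the 16 vehicle and 0.62 among the 32 drug libraries. The pair held in the 41 libraries of lower striatal content, at 0.69, and after removal of the composition scores, at 0.73. Among 19221 other genes, Per2 stood at the 99.98 percentile of correlation with Per1, and Per1 at the 99.8 percentile with Per2. By contrast Per1 and Arntl had r = 0.02 (rho = 0.10, permutation p = 0.873, adjusted p = 0.873) over 48 libraries.

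Nr1d1 and Cry2 went together with Arntl. The r was 0.72 for Arntl and Cry2, 0.71 for Nr1d1 and Cry2 and 0.66 for Arntl and Nr1d1, with rho of 0.75, 0.71 and 0.63. In the 41 libraries r was 0.68, 0.67 and 0.54, and the 3 pairs stayed called. Arntl still had r = 0.57 with the striatal score in those 41. With the composition scores removed r of the 3 pairs was 0.32, 0.61 and 0.37. The first and the third of these were no longer called (permutation, adjusted p = 0.139 and 0.0586). Nr1d1 and Dbp had r = 0.56, Per2 and Cry2 0.50, Dbp and Cry2 0.45, and Dbp and Cry1 0.44. The pairs Dbp with Nr1d1 and Dbp with Cry2 were at 0.29 and 0.21 in the 41 libraries, while with the composition scores removed Dbp and Nr1d1 stayed called at 0.49 (permutation, adjusted p = 0.00714) and Dbp and Cry2 were at 0.36 (permutation, adjusted p = 0.0915).

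Without the 7 libraries, 14 of 45 pairs were called, again all positive, and 6 of them were among the 9 called over 48. There Per1 had r = 0.71 with Nr1d1, 0.61 with Cry2 and 0.46 with Arntl, and Per2 0.69 with Nr1d1, 0.75 with Cry2 and 0.61 with Arntl. After removal of the composition scores 9 pairs were called, 4 of them shared with the 9 over 48, and 1 of the 9 was negative: Arntl and Nr1d2 at -0.44, from -0.21 before. With median-ratio scaling of the libraries, 27 pairs were called, all positive and all 9 of the first among them. Within the vehicle libraries 3 pairs were called and within the drug libraries 7, each a subset of the 9.

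**Figure D4:**
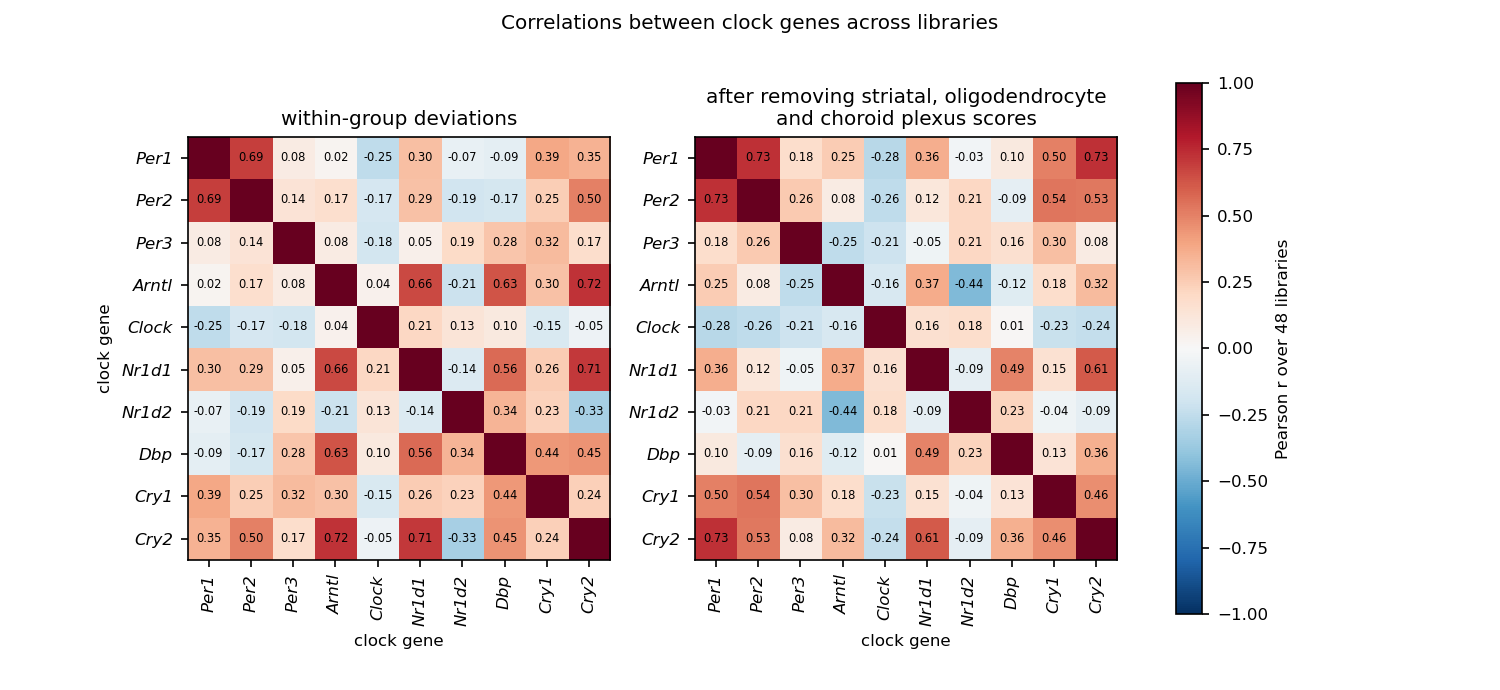
Pearson r of each pair of clock genes over 48 libraries, from log2 TPM minus the group mean (left) and with striatal, oligodendrocyte and choroid plexus scores also removed (right). Arntl and Dbp go from 0.63 to -0.12, while Per1 and Per2 stay at 0.69 and 0.73.

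Other markers and acute genes moved with the clock genes too. The oligodendrocyte score had a negative r of -0.67 with Cry2, -0.51 with Per2, -0.44 with Arntl and -0.37 with Nr1d1, and a positive r of 0.59 with Nr1d2 (n = 48, all 5 called over the 90 relations by permutation). The choroid plexus score passed with 0 of the 10 genes. Fos was lower where Dbp was higher (r = -0.80, rho = -0.62, permutation, adjusted p = 8.18e-05), and the same held for Arntl at -0.63 and Nr1d1 at -0.50, while Per2 had r = 0.45 with Fos. In the 41 libraries of lower striatal content the r with Fos was -0.40 for Dbp, -0.03 for Arntl, 0.03 for Nr1d1 and 0.35 for Per2, and with the scores removed it was -0.43, -0.32, -0.40 and 0.57. Tsc22d3, a glucocorticoid-induced gene, had r = -0.73 with Cry2, -0.71 with Arntl and -0.69 with Nr1d1, and -0.70, -0.70 and -0.71 in the 41. With the composition scores removed these were -0.43, -0.31 and -0.41. Hspa1a and Cirbp had r = -0.73 and -0.71 with Arntl, which were -0.41 and -0.45 in the 41 libraries and -0.26 and -0.48 with the scores removed. Sgk1 passed with 3 genes (Nr1d2 at 0.63, Cry2 at -0.54 and Per2 at -0.48) and Fkbp5 with 1 (Arntl at 0.38). With the scores removed the r with Sgk1 was 0.16, 0.23 and -0.01, of which that of Cry2 had turned positive, and that of Arntl with Fkbp5 was 0.28. What share of these relations comes from composition was not tested apart from the fits with the scores.

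The genes whose deviations were most like a clock gene's were named among all genes with a mean of at least 1 TPM, as a description over 48 libraries that share composition. For Arntl they were Gabra4, a GABA receptor subunit, Atp2b1, a calcium pump, and Car11, with r of 0.93 each, and the most opposed were Igsf10, Maoa, a monoamine oxidase, and Nap1l4 at -0.93, -0.92 and -0.92. For Dbp they were Syndig1l, Adcy5, the main adenylyl cyclase of the striatum, and Gm32817, each at 0.88, against Arl5a, Rxfp3 and Kcnj16, each at -0.88. Nr1d1 was most like Vps37b, Ppp1r1a and Mgat4b at 0.81, and least like Plpp4, Gm20300 and Alg12 at -0.84, -0.80 and -0.79. Among the 19221 other genes, Arntl stood at the 96.8 percentile of correlation with Dbp.

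For Per1 the most similar genes were Egr2, an immediate-early transcription factor, Mex3b and Actn4, with r of 0.71, 0.70 and 0.69, and among the most opposed were Cmpk2 and Pld5 at -0.65 and -0.63. Per2 was most like Frmd6, Gm5780 and 1700016P03Rik at 0.84, 0.83 and 0.80, and most opposed to Xrcc3, Ctsb and Abat at -0.76, -0.75 and -0.75. Of the wider pathway, Npas2 had r of 0.82 with Arntl and with Cry2, and Hlf 0.70, Tef 0.67 and Ciart 0.45 with Arntl. Nfil3, which acts against Dbp on D-boxes, had r = -0.76 with Dbp, and Bhlhe40 had -0.64 with Dbp and 0.58 with Per2. All these correlations are over 48 libraries that differ in composition. They were not computed without the 7 libraries of high striatal sum or with the scores removed. The part of composition in them was not tested.

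The labels also hold a code number for each mouse. All numbers of the vehicle groups lie below all those of the drug groups, so treatment and code range cannot be told apart. Within the drug groups the highest numbers all belonged to WT mice, so genotype and code order are partly tied there. The correlations below use deviations from group means and cannot separate these. Between the genotypes given FLX, limma with a term for codes above the median of the drug range or not called 73 genes, against 364 without it. In both fits 2 of 10 clock genes had an unadjusted p under 0.05, beside 16.6% of all genes without the term. That share was not computed with the term. Whether levels followed the number was tested within the 16 vehicle and the 32 drug libraries, which gives 20 relations. None was called: 0 of 20 had an adjusted p under 0.05 by permutation, and 2 had an unadjusted p under 0.05. Clock, the partner of Arntl, came nearest, with r = 0.68 and rho = 0.72 in the vehicle libraries (n = 16, permutation p = 0.00459, adjusted p = 0.0918), 0.74 without the 2 farthest codes, and r = 0.34 in the drug libraries (n = 32, permutation p = 0.093, adjusted p = 0.465). Nr1d1 had r = 0.50 in the vehicle libraries (rho = 0.47, permutation p = 0.0386, adjusted p = 0.386) and 0.24 in the drug libraries. For Dbp, the gene with the widest range, r was 0.08 and 0.15, and for Arntl 0.13 and -0.14. With the composition scores removed 1 relation was called, that of Clock in the vehicle libraries at r = 0.78 (permutation, adjusted p = 0.001). The code is a label and no source used here ties it to the hour or the day of collection.

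**Figure D5:**
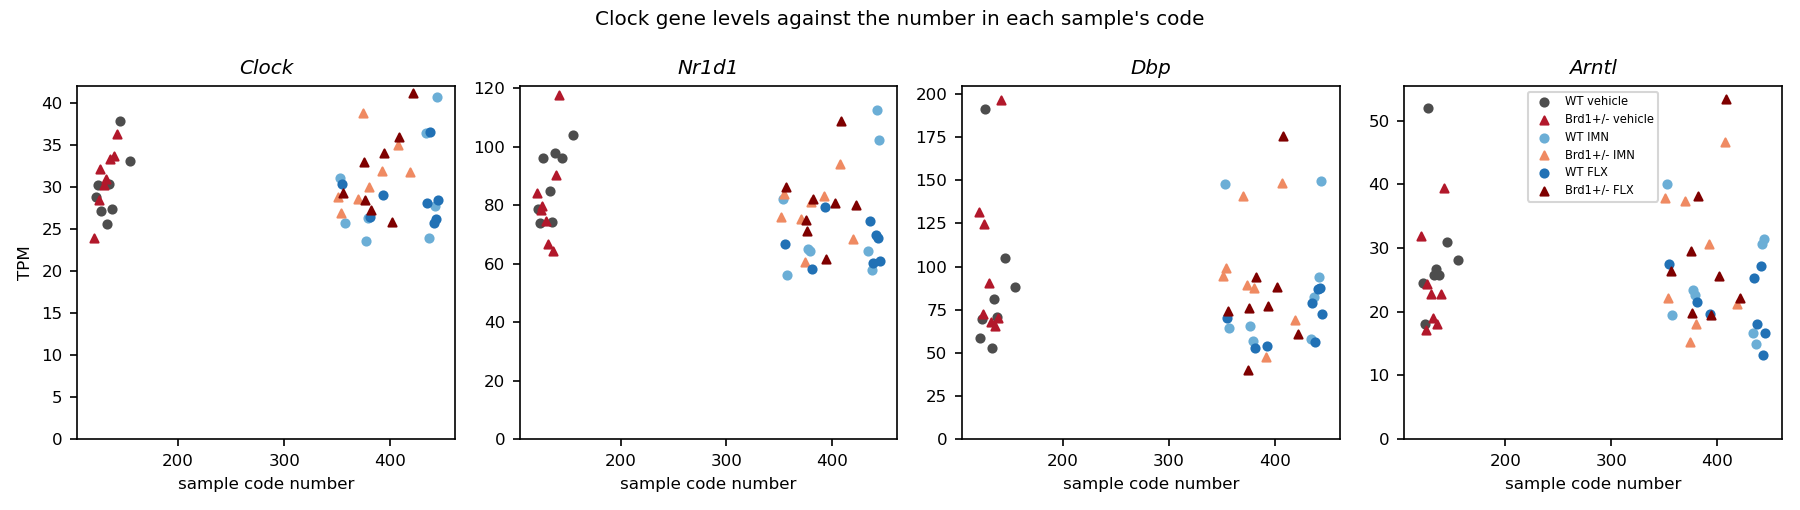
Level in TPM of Clock, Nr1d1, Dbp and Arntl against the number in each sample's code, for the vehicle libraries (lower numbers) and the drug libraries (higher numbers). Clock is higher at higher numbers in the vehicle range (r = 0.68), and Dbp and Arntl show no such order.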

How the data were processed

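Bulk RNA-seq of 48 mouse amygdala samples was analysed. Per the labels and the methods of the study, single-end reads were quality-filtered (Trimmomatic), aligned to GRCm38 with HISAT2 2.1.0 and quantified with StringTie 1.3.4, and the authors deposited TPM values for 52636 genes. TPM columns sum to 999524 to 999772, so read depth is unknown, and strand use in quantification is not given in the sources used here. A TPM share depends on the other transcripts in the punch.

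Genes were matched through symbols paired with Ensembl IDs. Groups came from the sample titles. Replicates were the separately titled samples of a group. Differences were tested with limma 3.58.1 (R 4.3.3) on log2(TPM + 0.1), with a trended empirical Bayes variance, on genes with at least 0.1 TPM in at least 8 libraries of the fit, fitting the groups compared only, with Benjamini-Hochberg adjustment over all genes. The study itself used edgeR on counts, which were not used here. Fold changes of low genes are understated by the pseudocount. Exact permutation tests enumerated 12870 arrangements, giving at least 0.000155. Correlations used deviations from group means with 100000 permutations within groups. Composition scores were mean log2 levels of marker lists. The code was tested on simulated data.

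The 10 genes, the 25 pathway genes, the 12 acute-response genes and the marker lists were chosen with earlier results of these data known. Named in every comparison were the 10 genes and Brd1, for the pathway list 7 set genes and any called, for the acute list 6 set genes and any called, and for 5 clock genes the 3 most and 3 least similar genes, of which 1 is not reported here. The relations with scores and acute genes, the exact tests and the omission of 7 libraries of high striatal content were added after seeing the data.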

Additional observations from a re-analysis of the deposited data

Results flagged for a closer look

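Of 60 sets of 8 libraries (10 clock genes in 6 groups), 4 held a library whose gap to the nearest other, divided by the range of the set on the log2 scale, passed the 95% critical value of Dixon's test, and chance passes about 1 in 20 sets. Per3 was at 48.2 TPM in Brd1+/- IMN replicate 7, above the next highest at 29.5 TPM (gap ratio 0.693). Per3 was at 16.1 TPM and Nr1d2 at 51.2 TPM in Brd1+/- FLX replicate 7, below the next lowest at 24.9 and 72.2 TPM (0.547 and 0.556). Cry1 was at 25.1 TPM in WT vehicle replicate 1, above the next at 15.9 TPM (0.613), and the choroid plexus markers summed to 29502 TPM in that library, the highest of the 48. Brd1+/- FLX replicate 7 also had the lowest Dbp of all libraries, 39.8 TPM.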

How the results depend on the processing

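The count of clock genes called stayed at 0 in the 12 comparisons under pseudocounts of 0.01 and 1, no filter or a filter of 1 TPM, median-ratio scaling and quantile normalization. It also stayed at 0 with a replicate block, a term for codes above the median of their range or not, and composition scores. The same held for a single fit of all 48 libraries (where it differs) and the omission of 7 libraries. Leaving out single libraries gave 0 to 1 in FLX against vehicle in WT mice (Nr1d1, in 3 of 16 omissions) and 0 in the others. The number of correlated pairs was 9, 27 with median-ratio scaling, 3 in the vehicle libraries alone and 14 without the 7 libraries of high striatal level, and the r of Arntl and Dbp turned to -0.12 with composition scores. Of 20 relations with the sample code, 1 was called with composition scores. The median within-group SD of the clock genes was 0.27 on the log2 scale and 0.22 with those scores. The causes of these shifts were not tested beyond what each setting removes.

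The replicate block gave 0 clock genes called in every comparison and 10 correlated pairs, of which 8 were among the 9 and 1 was negative. Same-numbered libraries did not deviate together in all pairs (r from -0.26 to 0.52 over the tested genes), so the numbers were not taken as a pairing, and not every library correlated best with its own number. The block moved the count over all genes from 79 to 0 in FLX against vehicle in WT mice and from 364 to 46 between genotypes given FLX. Precision is limited by 8 libraries a group, TPM without depth, and punches that differ in composition.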
